A study of Mus musculus with 23 samples.

Results

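Glycolysis is run by isoenzymes, products of different genes that catalyse the same step, and by carriers that move glucose in and lactate out of cells. The 32 genes described here are these isoenzymes and carriers together with *Pdk1*, which restrains the use of pyruvate in mitochondria. They were picked by name from the pathway, out of 48895 genes in the table, and all 32 were measured. The libraries came from male BALB/c mice aged 4 to 6 weeks at the start. In 9 mice, cells of the mouse colon carcinoma line CT26 were placed in the cecal serosa by injection, and after 3 weeks each mouse gave its liver (pre-metastatic liver) and its primary tumor. In 5 sham-operated mice serum-free RPMI medium was injected instead, and each gave its liver (control liver). No transgene or deletion is given for any group, all tumors derive from the same cell line, and each library comes from a separate piece of tissue of 1 mouse, named here by its mouse (C1 to C7 in the control group, M1 to M12 in the tumor-bearing group).

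Liver takes up glucose through GLUT2 (*Slc2a2*) and uses the liver form of pyruvate kinase (*Pklr*), which has to be off when it makes glucose instead. Most dividing cells use GLUT1 (*Slc2a1*), the hexokinases *Hk1* and *Hk2*, *Aldoa* and *Pkm*, and release lactate through MCT1 and MCT4 (*Slc16a1* and *Slc16a3*). Low oxygen and the oncogene *Myc* are known to raise many of the latter genes, and feeding on carbohydrate is known to raise *Pklr* in liver.

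Poly(A) RNA was sequenced to 51064615 to 60393702 counts in control liver, 44587556 to 79773163 in pre-metastatic liver and 47005276 to 70884436 in the primary tumor. Values per library are RPKM, the count divided by gene length and by the library's total on the usual scale, and are given as the lowest, median and highest library where a group holds 9. Fold changes are log2 values from edgeR with their standard errors, and a gene was called at an adjusted *p* under 0.05 over all genes tested. These samples are bulk tissue, so fewer cells of a type and less RNA per cell cannot be told apart. The 8 hepatocyte markers summed to between 38230 and 79230 RPKM in the livers and to between 7.93 and 15.1 in 6 of the 9 tumors, with 36 in M2, 163 in M10 and 313 in M12. The tumors carried *Krt20* at 27.8 to 113 RPKM and *Mki67* at 31.6 to 44.3, while the epithelial marker *Epcam* had a median of 0.0622 and the intestinal factor *Cdx2* a median of 0.12. Skeletal muscle markers summed to 617 RPKM in the tumor of M4 and 146 in that of M7, against at most 2.65 in the other tumors, and to 123 in the control liver C1. Leukocyte markers did not overlap between the groups of livers, at 14.3 to 33 RPKM in control liver and 35.3 to 163 in pre-metastatic liver, and summed to 141 to 337 in the tumors. The livers also differed in the phase of clock genes, early in 4 control and 5 pre-metastatic livers and late in C7, M1, M2, M10 and M12. On an index of these genes, with late above 0.5, C7 was at 0.981 and the late pre-metastatic livers at 2.05 to 2.92. C7 is thus not matched to them in phase. The early livers ran up to −0.102, in M7.

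In pre-metastatic liver the module moved in both directions. Compared with control liver, 11 of the 32 members were called higher, where 17.7% of all genes tested were, and 7 were called lower, where 13.3% were. The risers were *Pklr*, *Pfkfb4*, *Aldoc*, *Eno2*, *Hk3*, *Slc16a3*, *Pkm*, *Hk2*, *Slc2a2*, *Hk1* and *Pdk1*, and 8 of them rose by 2-fold or more. With limma on log2(RPKM + 1), a scale that understates the change of low genes, 2 members were called higher by 2-fold and 1 lower. The share of all genes at 2-fold between the livers is not given here. No excess of members can therefore be read from these 2-fold counts. The members that fell were *Aldoa*, *Pfkfb2*, *Slc2a1*, *Tpi1*, *Pfkm*, *Pgam1* and *Gapdh*, none by 2-fold with edgeR. RPKM ranges did not overlap for 5 members that were higher and 5 that were lower, against 4.85% and 6.09% of all genes. The members' median log2 fold change was 0.18 and that of all genes 0.01. Among the 4 control and 5 pre-metastatic livers of the early clock phase alone, 8 members were called higher and 4 lower. The share of all genes called in this subset is not given here.

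In the primary tumor more members were higher than lower. Of the 32 members, 21 were called higher than in pre-metastatic liver and 10 lower, against 43.8% and 39.5% of all genes, and 16 and 8 of them changed by 2-fold or more, against 31.3% and 28.4%. Against control liver, with the same tumors, 20 of 31 members tested were higher and 7 lower (44.2% and 38.1% of all genes), 15 and 6 of them by 2-fold or more (33.5% and 27.3%). Ranges did not overlap for 20 members higher and 4 lower than in pre-metastatic liver (52.9% and 14.2% of all genes) and for 23 and 4 against control liver (56.4% and 17.1%). The median log2 fold change of the members was 0.98 against pre-metastatic liver and 0.96 against control liver, and that of all genes 0.13 and 0.18.

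The fold changes between tumor and liver depend on how libraries are scaled. edgeR's TMM factors set the bulk of the genes level between libraries, whereas RPKM divides by the total count alone. Without these factors the median of all genes moved up by 1.17 against pre-metastatic liver and by 1.08 against control liver. The members called became 24 higher and 7 lower of 32, and 25 higher and 4 lower of 31. Of all genes, 13352 were then higher and 4206 lower of 19749 against pre-metastatic liver. Against control liver they were 12859 and 4130 of 19320. The counts of members thus lay nearer to those of all genes than with TMM factors. Among all genes called, the share that was higher went from 52.5% to 76% against pre-metastatic liver and from 53.7% to 75.7% against control liver, and between the livers from 57.1% to 46%. Directions turned for *Pfkfb3* and *Ldha* in both comparisons, for *Pdk1* against pre-metastatic liver and for *Aldoc* against control liver, as given at each gene. The share of an isoenzyme within its family is free of this scaling, and so are the exact permutation tests of the shares: of the 27 shares given here, 1 for each of 9 families in each comparison, 16 passed after adjustment over 33, namely 4 between the livers and 6 in each comparison with tumor. The smallest exact *p* these designs allow is 0.0005 with 5 control livers and 4.11e-05 with 9 libraries in each group.

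**Figure D1:**
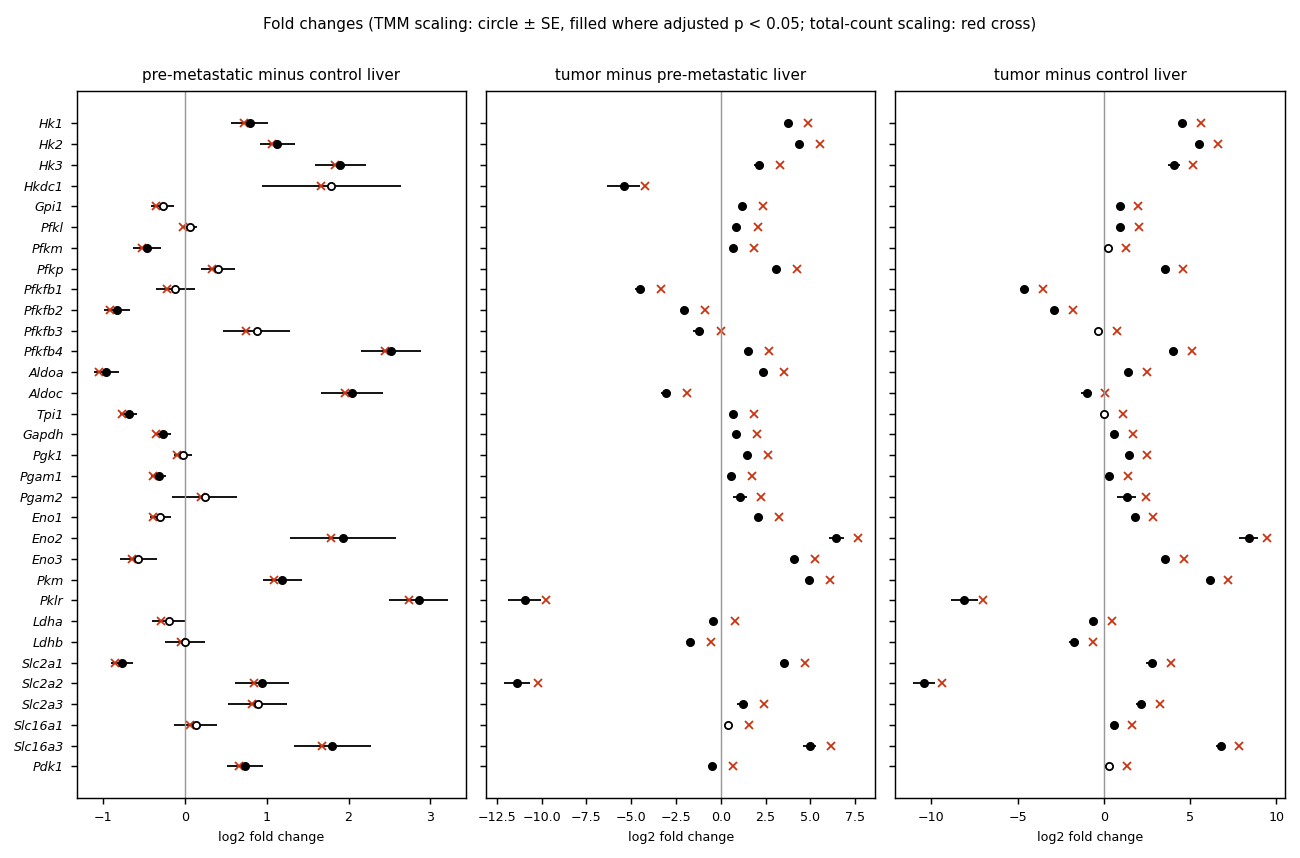
Log2 fold change (second group minus first) of each member in the 3 comparisons, as circles with standard errors as bars, filled where adjusted *p* is under 0.05, and red crosses for scaling to total counts. In tumor against pre-metastatic liver the values run from *Eno2* at 6.44 to *Slc2a2* at −11.39, and without TMM factors *Pfkfb3*, *Ldha* and *Pdk1* turn to 0.01, 0.77 and 0.71 in that comparison and *Pfkfb3*, *Ldha* and *Aldoc* to 0.75, 0.47 and 0.09 against control liver.

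The leading glucose transporter differed between liver and tumor. *Slc2a2* (chr3:28697903-28728361 in mm10), the high-capacity transporter of hepatocytes, stood at 46.8, 38.9, 29.8, 39.6 and 82.5 RPKM in the 5 control livers, at 42.1, 70.4 and 137 in pre-metastatic liver and at 0, 0.00828 and 0.258 in tumor. C7, the only control of the late clock phase, was above every other control liver. *Slc2a2* was higher in pre-metastatic liver by 0.94 ± 0.33 (adjusted *p* = 0.043), but the call was lost without any of C1, C4, C5, C6, M1, M2, M10 or M12 (adjusted *p* 0.0649 to 0.106) and in the early-phase livers alone (0.55, adjusted *p* = 0.0731). Within a phase the levels were 29.8 to 46.8 in control against 42.1 to 70.4 in pre-metastatic liver early, and 82.5 in C7 against 117 to 137 late. In tumor it fell by 11.39 on the log2 scale from pre-metastatic liver (SE 0.73, adjusted *p* = 1.36e-11). The highest tumors were M10 and M12, which also had the most hepatocyte marker RNA, and without them it fell by 13.14. Whether that RNA accounts for the counts was not tested.

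*Slc2a1*, the widely used transporter GLUT1, went the other way in both comparisons. Control livers held 7.16, 5.07, 5.44, 4.24 and 6.71 RPKM, pre-metastatic livers 2.42, 3.26 and 4.16, and tumors 39.8, 74.6 and 147. None of the 3 ranges overlapped. It fell by 0.77 in pre-metastatic liver (SE 0.14, adjusted *p* = 0.000835) and rose by 3.54 ± 0.23 from there to tumor (adjusted *p* = 1.83e-11). *Slc2a3*, the high-affinity transporter GLUT3, was scarce in liver, at 0.0881 to 0.13 RPKM in control and 0.0707 to 0.388 in pre-metastatic liver (log2 difference 0.89, adjusted *p* = 0.0747, and 0.0322 to 0.0335 without M7 or M8). It reached 0.382 to 1.8 in tumor, 1.24 ± 0.31 above pre-metastatic liver (adjusted *p* = 0.00105). As shares of the 3 transporters, *Slc2a2* made up 88.3% ± 3.1 (SD) of control liver, 95.6% ± 1.76 of pre-metastatic liver and 0.104% of tumor, where *Slc2a1* held 98.6% ± 0.599. The rise of the *Slc2a2* share between the livers, 7.27 points, had no overlap (exact permutation adjusted *p* = 0.000916) and was 6.97 points among early-phase livers.

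**Figure D2:**
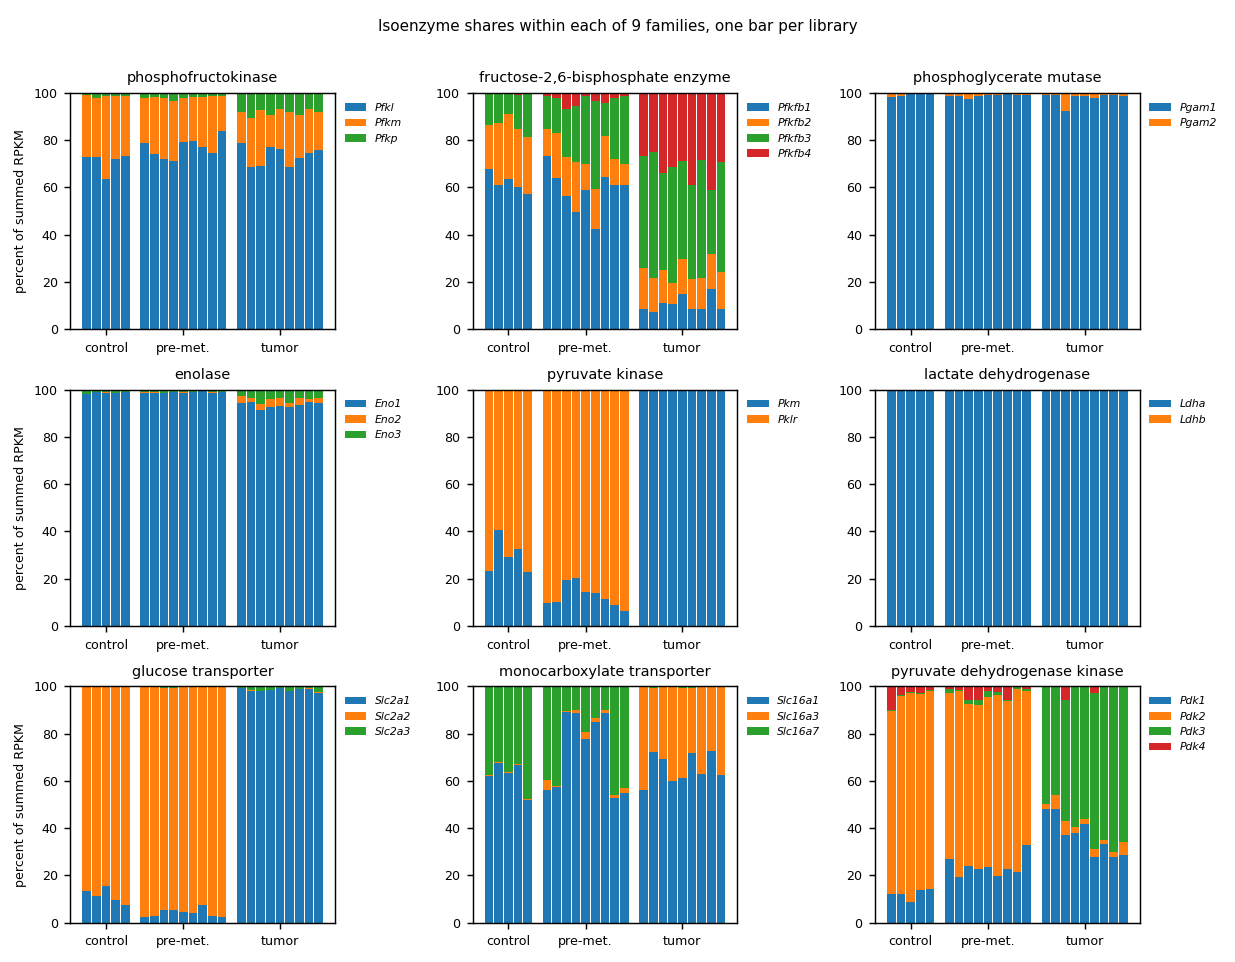
Share (%) of each isoenzyme in the summed RPKM of its family, 1 stacked bar for each library of control liver, pre-metastatic liver and primary tumor. The liver forms *Pklr* and *Slc2a2* fill most of every liver bar and average under 1% of tumor, while *Ldha*, *Pgam1* and *Eno1* lead their families in all 3 tissues.

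The first step, the trapping of glucose as its phosphate, is run in most tissues by the high-affinity hexokinases. *Hk2*, an inducible form that binds mitochondria, had 0.266, 0.211, 0.174, 0.346 and 0.206 RPKM in the control livers and 0.348, 0.476 and 0.741 in pre-metastatic liver, so that the highest control lay just under the lowest pre-metastatic library. It rose by 1.13 ± 0.21 there (adjusted *p* = 0.0012) and by a further 4.38 ± 0.16 in tumor (adjusted *p* = 3.24e-15), to 14.4, 25.8 and 28.8. *Hk3*, the form of myeloid cells, ranged from 0.235 to 0.574 in control and from 0.799 to 2.93 in pre-metastatic liver without overlap (1.90 ± 0.31, adjusted *p* = 0.000432). *Hk1*, the form most tissues express, overlapped between livers (0.358 to 0.906 and 0.504 to 1.44) and was called higher by 0.79 ± 0.23 (adjusted *p* = 0.0166), a call that early-phase livers alone did not give (adjusted *p* = 0.0961). Leukocyte markers moved with these 3 genes between the livers, and their part was not tested.

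As shares of the summed RPKM of *Hk1*, *Hk2*, *Hk3* and *Hkdc1*, *Hk1* led in tumor with 44.5% ± 4.41, followed by *Hk2* with 34.1% ± 4.54 and *Hk3* with 21.4% ± 6.76. The ranges of *Hk1* (38.1 to 50.8%) and *Hk2* (28.3 to 40.2%) overlapped, as did those of *Hk2* and *Hk3* (13.5 to 31.5%). In pre-metastatic liver *Hk3* had the highest mean of the 4, at 46.9% ± 8.56, and in control liver *Hk1*, at 46.5% ± 6.75, and in both tissues the ranges of *Hk1* and *Hk3* overlapped. In tumor *Hk1* reached 25.7, 29.5 and 40 RPKM and *Hk3* 8.75, 10.6 and 26.6, which lay 3.73 ± 0.16 and 2.15 ± 0.27 above pre-metastatic liver. *Hkdc1*, a hexokinase-like gene, was near the floor throughout. It had 3 to 11 counts in control liver and 0 to 5 in tumor, and 120 counts in the pre-metastatic liver M12 against at most 0.102 RPKM in the others. Its tumor value of −5.42 against pre-metastatic liver (adjusted *p* = 1.8e-05) rests on those few counts, and it was not tested against control liver.

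*Gpi1*, which turns glucose phosphate into fructose phosphate and has no isoenzyme, held 56 to 92.6 RPKM in control liver, 44.4 to 65.2 in pre-metastatic liver (log2 difference −0.27, adjusted *p* = 0.148) and 223 to 409 in tumor, 1.19 ± 0.13 above pre-metastatic liver (adjusted *p* = 3.88e-08). Phosphofructokinase commits sugar to glycolysis. *Pfkl*, the liver form, supplied 71% ± 4.14 of control liver, 76.8% ± 4.07 of pre-metastatic liver and 73.5% ± 4 of tumor. The difference between the livers (5.76 points, exact permutation adjusted *p* = 0.04) was lost without any of C5, C6, M1, M6, M7, M8 or M12 (adjusted *p* 0.0513 to 0.149) and in the early-phase livers (5.39 points, adjusted *p* = 0.153). Those of tumor from pre-metastatic and control liver were −3.24 and 2.52 points (adjusted *p* = 0.161 and 0.363). With shares of raw counts in place of RPKM they were −11 and −6.39 points (exact permutation adjusted *p* = 0.000339 and 0.0202), so this result depends on the measure. *Pfkl* itself rose from 11, 13.6 and 14.7 RPKM in pre-metastatic liver to 38.9, 51.9 and 75.6 in tumor (0.88 ± 0.12, adjusted *p* = 1.8e-06). *Pfkm*, the muscle form, was lower in pre-metastatic than in control liver by 0.46 (SE 0.17, adjusted *p* = 0.0462), but leaving out any of C1, C4, C5, C7, M1, M5, M6, M7, M8 or M12 gave adjusted *p* of 0.0533 to 0.224. Its tumor value was 0.66 ± 0.11 against pre-metastatic liver (adjusted *p* = 2.3e-05) and 0.23 against control liver (adjusted *p* = 0.166, or 0.00255 with 0.43 without C5). *Pfkp*, the platelet form, grew from 1.35% and 1.86% of the livers' total to 8.25% ± 1.31 in tumor, with ranges of 4.26 to 9.02 RPKM there and at most 0.61 in liver (3.09 ± 0.17). *Pfkm*, with up to 3549 counts, overlaps *Senp1* on the opposite strand, which had up to 5819. *Pfkp*, with up to 5997, overlaps *Pitrm1* there, which had up to 6087. *Gpi1*, with up to 74158, overlaps an unnamed gene there with up to 2843. The strand setting of the counts is not given in the sources used here, so reads of these pairs may be shared.

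The bifunctional PFKFB enzymes set the level of fructose-2,6-bisphosphate, the activator of phosphofructokinase. *Pfkfb1*, the liver form, ranged from 9.46 to 13.7 RPKM in control and from 6.22 to 15.2 in pre-metastatic liver (log2 difference −0.12, adjusted *p* = 0.74), and fell by 4.53 in tumor (SE 0.26, adjusted *p* = 2.54e-12) to 0.707 to 1.76. Its share of the family was 62.1%, 59% and 10.6% in the 3 tissues. *Pfkfb2*, the heart form, was 3.43 to 5.51 RPKM in control and 1.73 to 3.36 in pre-metastatic liver, without overlap, a fall of 0.83 (SE 0.16, adjusted *p* = 0.00137), and 1.1 to 1.73 in tumor. Over 4747 bases it overlaps *Yod1* on the opposite strand, which had up to 839 counts where *Pfkfb2* had up to 3094, so reads of the pair may be shared. *Pfkfb4*, a form induced by low oxygen, had the largest change of the 4 between the livers. The control livers held 0.0503, 0.107, 0.0618, 0.165 and 0.0614 RPKM, the pre-metastatic livers 0.205, 0.451 and 0.805, and the tumors 2.2, 3.34 and 3.79. It rose by 2.52 ± 0.37 between the livers (adjusted *p* = 0.000212), with no overlap, and by 1.5 ± 0.21 from there to tumor (adjusted *p* = 1.36e-06), where its share was 31.5% ± 5.45. *Pfkfb3*, the form with the strongest kinase activity, was scattered in pre-metastatic liver (1.71 to 7.42 RPKM, 0.88, adjusted *p* = 0.12) and led the family in tumor with 43.9% ± 7.68, at 2.23 to 6.38 RPKM. Its tumor value was −1.23 ± 0.32 against pre-metastatic liver (adjusted *p* = 0.00156), which became 0.01 without TMM factors, and −0.33 against control liver (adjusted *p* = 0.14), which became 0.75.

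Aldolase splits the doubly phosphorylated sugar. *Aldoa* is the ubiquitous form. Its control values were 57.9, 67.7, 67.7, 62.8 and 47.3 RPKM, those of pre-metastatic liver 22.6, 28.2 and 38.7, and those of tumor 230, 334 and 490. *Aldoa* thus fell by 0.96 in pre-metastatic liver (SE 0.15, adjusted *p* = 0.000296) and stood 2.34 ± 0.16 above it in tumor (adjusted *p* = 3.26e-11), without overlap in either comparison. *Aldoc*, the brain form, had 2.1, 1.36, 0.603, 0.791 and 1.76 RPKM in control liver, 2.82, 4.62 and 8.58 in pre-metastatic liver and 0.923, 1.33 and 2.63 in tumor. All 9 pre-metastatic livers were above all controls and all tumors. It rose by 2.04 ± 0.38 between the livers (adjusted *p* = 0.00104) and lay 3.06 lower in tumor than in pre-metastatic liver. Against control liver its tumor value was −1.0 ± 0.31 (adjusted *p* = 0.00681), and 0.09 without TMM factors.

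**Figure D3:**
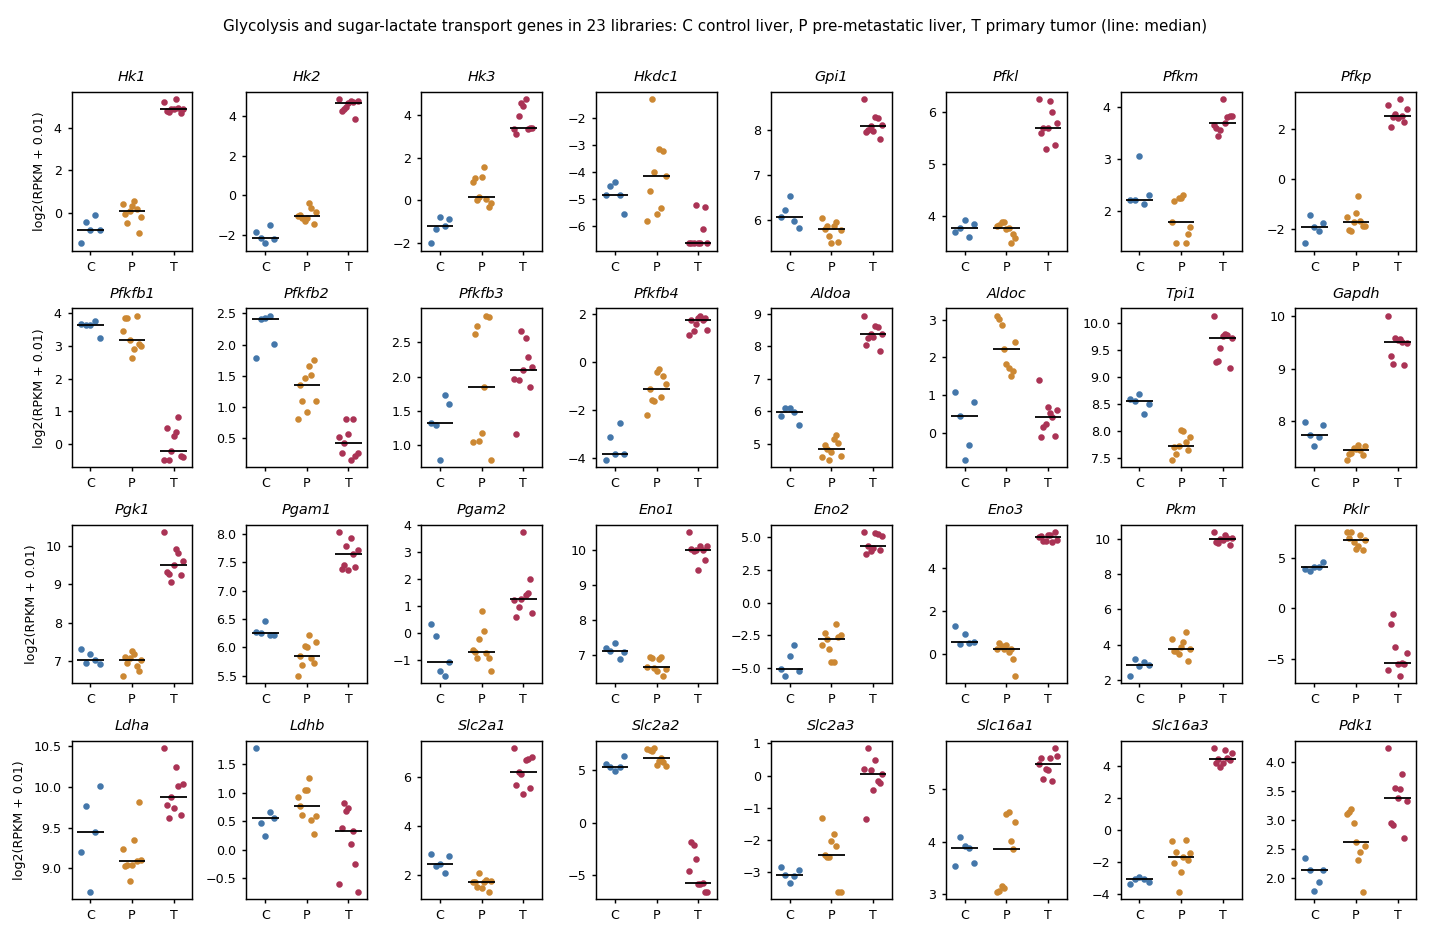
Level of each of the 32 members in every library as log2(RPKM + 0.01), 1 point a library, for control liver (C), pre-metastatic liver (P) and primary tumor (T), with a line at the median. In RPKM, *Pklr* runs from 12.9 to 24.2 in control liver, 52 to 184 in pre-metastatic liver and 0 to 0.672 in tumor, and *Pkm* from 833 to 1372 in tumor.

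The middle of the pathway is carried by single genes or 1 leading form. *Tpi1*, which interconverts the triose phosphates, was 385, 377, 414, 318 and 362 RPKM in control liver and 177, 212 and 260 in pre-metastatic liver, a fall of 0.69 without overlap (SE 0.10, adjusted *p* = 0.000186). In tumor it was 575, 847 and 1126 RPKM, 0.69 ± 0.13 above pre-metastatic liver (adjusted *p* = 6.01e-05). Against control liver the fitted value was 0.02 (adjusted *p* = 0.921), although the RPKM ranges did not overlap, and it was 1.10 without TMM factors. *Gapdh*, the dehydrogenase that yields the first NADH, was lower in pre-metastatic liver by 0.27 (SE 0.10, adjusted *p* = 0.0464). That call was lost without any of C1, C4, C6, C7, M1, M2, M4, M5, M7, M8 or M10 (adjusted *p* 0.0534 to 0.168). In tumor *Gapdh* was 535 to 1030 RPKM, against 153 to 186 in pre-metastatic liver (0.87 ± 0.12, adjusted *p* = 1.55e-06). The table lists 263 copies of *Gapdh*, which held a median of 39.1 to 41.2% of the counts of the parent gene and copies together, so its level is uncertain, as are those of *Eno1* with 9 copies and *Pgam1* with 3.

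*Pgk1*, which makes the first ATP of the pathway, did not pass the test between the livers (122 to 158 RPKM in control, 97.7 to 153 in pre-metastatic liver, −0.03, adjusted *p* = 0.88). It was 530, 718 and 1317 RPKM in tumor, 1.45 ± 0.16 above pre-metastatic liver (adjusted *p* = 6.71e-08). *Pgam1*, the brain and liver form of phosphoglycerate mutase, was 76.8, 76.1, 88.1, 74 and 74.5 RPKM in control and 45 to 74 in pre-metastatic liver, a fall of 0.32 (SE 0.09, adjusted *p* = 0.0159, but 0.0557 without C5 and 0.0576 in early-phase livers). Its value in tumor was 0.59 ± 0.10 against pre-metastatic liver and 0.29 ± 0.13 against control liver. The latter call (adjusted *p* = 0.0425) was lost without any of C1, C4, C6, C7, M2, M5 or M8 (adjusted *p* 0.0501 to 0.0937), and with the copies added (adjusted *p* = 0.057). *Pgam1* supplied 99.2%, 98.7% and 98.1% of the family. *Pgam2*, the muscle form, ranged from 1.5 to 4.04 RPKM in 8 tumors and was 13.4 in M4, whose skeletal muscle markers summed to 617. *Pgam2* was called higher in tumor (1.07 ± 0.41 against pre-metastatic liver, adjusted *p* = 0.02, and 1.33 ± 0.56 against control liver, adjusted *p* = 0.039). Without the tumors of M4 and M7 the values were 0.35 (adjusted *p* = 0.238) and 0.62 (adjusted *p* = 0.118), and against control liver the call was also lost without any of C5, C6, C7, M4 or M7 alone (adjusted *p* 0.0519 to 0.0919). The highest livers were C1 and M4, at 1.24 and 1.76 RPKM, which had the most muscle marker RNA of their groups.

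Enolase makes phosphoenolpyruvate. *Eno1*, the ubiquitous form, made up 98.8% ± 0.246 and 98.9% ± 0.223 of the livers' enolase and 93.6% ± 1.17 of that of tumor, without overlap (exact permutation adjusted *p* = 0.000226 against pre-metastatic liver). Its level was 119 to 161 RPKM in control liver, 85 to 124 in pre-metastatic liver (−0.30, adjusted *p* = 0.0813, and 0.0341 or 0.0409 without M6 or M12) and 687 to 1448 in tumor (2.07 ± 0.15). *Eno3*, the muscle form, was 1.37 to 2.45 RPKM in control liver and 0.486 to 1.4 in pre-metastatic liver (−0.57, adjusted *p* = 0.071). In tumor it was 36.3, 43 and 50.6, a rise of 4.08 ± 0.17 (adjusted *p* = 1.28e-14). M7 and M4, the tumors with the most skeletal muscle marker RNA, were the highest in *Eno3*, at 50.6 and 46 RPKM, followed by M5 at 45.4 and M10 at 44.7, and M6 was the lowest. Without M4 and M7 the difference from pre-metastatic liver was 4.03 ± 0.17 (adjusted *p* = 5.1e-13). *Eno2*, the neuronal form, had the largest rise of the members in tumor against pre-metastatic liver. It had 2 to 16 counts in control liver, 6 to 59 in pre-metastatic liver and 2997 to 9041 in tumor, or 13.4, 20.4 and 42.7 RPKM, 6.44 ± 0.42 above pre-metastatic liver (adjusted *p* = 2.1e-11). The 6 neuron markers summed to at most 0.909 RPKM in any tumor. Between the livers *Eno2* was called higher by 1.93 ± 0.65 (adjusted *p* = 0.0339), and this call was lost without any of C1, C4, C5, C7 or M6 (adjusted *p* 0.0537 to 0.0837) and in the early-phase livers (1.82, adjusted *p* = 0.135).

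Pyruvate kinase, the last step, showed the widest liver response. *Pklr* (chr3:89136129-89146600 in mm10), the liver and red cell form, was 15.1, 12.9, 16.5, 16.6 and 24.2 RPKM in the control livers and 52, 106 and 184 in pre-metastatic liver. Every pre-metastatic liver was more than 2-fold above every control. *Pklr* rose by 2.86 ± 0.36 (adjusted *p* = 8.11e-05), more than any other member. The rise was seen among the early livers, with 12.9 to 16.6 against 52 to 155 RPKM. In the late group C7, the only control and not matched in phase, had 24.2 against 95.3 to 184. Red cell precursor markers, which could share this gene, summed to 10.5 to 17.2 RPKM in control and 14.1 to 84.4 in pre-metastatic liver, and their part was not tested. In tumor *Pklr* was 0, 0.0145 and 0.672 RPKM. M10 and M12 held 71 and 107 of its counts and the other 7 tumors at most 11 each. It fell by 10.95 on the log2 scale against pre-metastatic liver, and without M10 and M12 it fell by 13.57.

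*Pkm* (chr9:59656368-59679375), which yields the M1 and M2 forms by splicing that gene counts cannot separate, rose between the livers too. It was 4.62, 8.93, 6.76, 7.97 and 7.14 RPKM in control liver, 8.41, 13.7 and 26 in pre-metastatic liver and 833, 1050 and 1372 in tumor. The rise was 1.19 ± 0.24 in liver (adjusted *p* = 0.00209), with 1 pre-metastatic value inside the control range, and 4.93 ± 0.22 from there to tumor (adjusted *p* = 6.67e-14). As a share of pyruvate kinase RNA, *Pklr* went from 70.3% ± 7.4 in control to 87.2% ± 4.78 in pre-metastatic liver, without overlap (16.9 points, exact permutation adjusted *p* = 0.000916), and to 0.014% in tumor.

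The promoter of *Pklr* is shown with its match to a known motif. The carbohydrate response element, which the glucose-sensing factor ChREBP (*Mlxipl*) binds with its partner *Mlx*, was searched as CACGNG followed, after any 5 letters, by CNCGTG on both strands in the 250 bases before each RefSeq start (GRCm38.p6). It was found in 13 of 32851 promoters, or 0.0396%, and among the 31 members with a promoter listed in that of *Pklr* alone. The 199 bases at chr3:89136373-89136571, plus strand, lie 250 to 52 bases before the second start that RefSeq lists for the gene, outside its exons, and capitals mark the match.
Pklr: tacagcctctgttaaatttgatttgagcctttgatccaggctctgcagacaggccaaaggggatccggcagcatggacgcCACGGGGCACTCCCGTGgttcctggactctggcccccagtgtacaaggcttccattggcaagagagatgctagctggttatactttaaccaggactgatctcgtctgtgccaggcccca
The match begins 170 bases before the start. *Mlxipl* itself was called higher in pre-metastatic liver, at 20.5 against 14.8 RPKM (0.53 ± 0.16, adjusted *p* = 0.023). A match of letters is a description and says nothing of binding. The search used a fixed string, so looser forms of the element in other promoters were not counted. Whether *Mlxipl* or feeding bears on the level of *Pklr* was not tested.

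**Figure D4:**
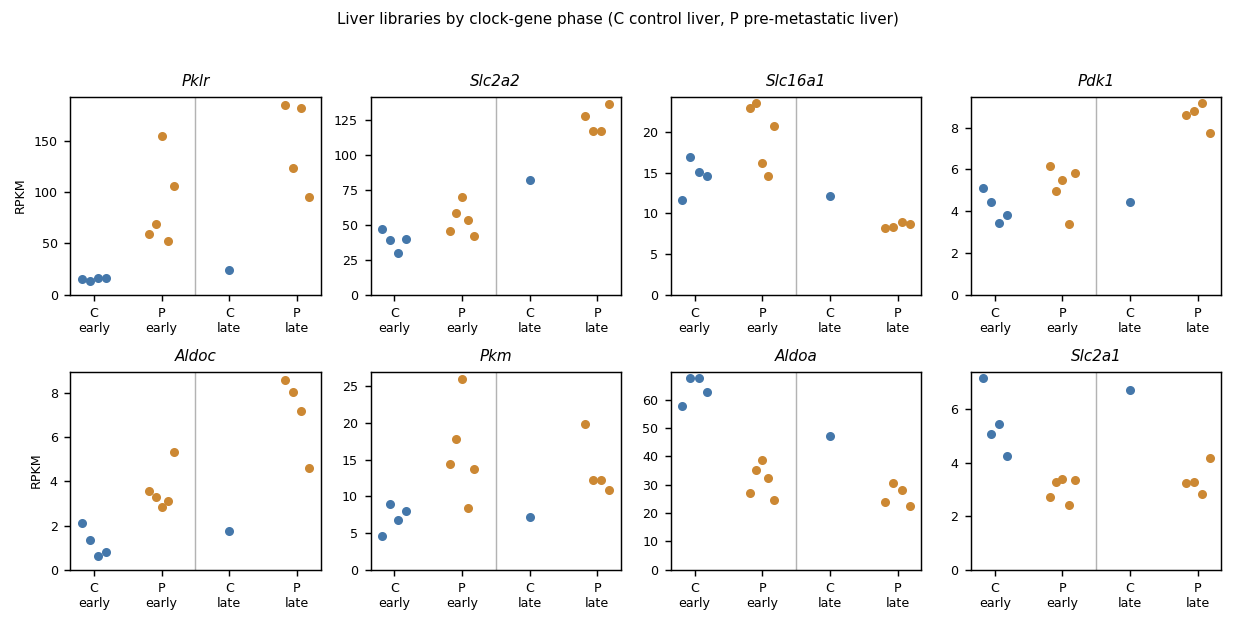
RPKM of 8 members in each liver by clock phase, early and late, for control (C) and pre-metastatic (P) livers, 1 point a library. *Pklr* is higher in pre-metastatic liver in both phases, the late one with C7 as its only control. *Slc16a1* is at 14.6 to 23.6 in early and 8.17 to 8.92 in late pre-metastatic livers.

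Lactate dehydrogenase was nearly all *Ldha*, the form that favours making lactate, with 99.7%, 99.7% and 99.9% of the family. The share in tumor was 0.183 points above that in pre-metastatic liver (exact permutation adjusted *p* = 0.000916), with overlap. The difference from control liver, 0.151 points (adjusted *p* = 0.0239), was lost without C1 or C5 (adjusted *p* 0.0623 and 0.107). *Ldha* was 587, 871, 418, 695 and 1031 RPKM in the control livers, 459, 544 and 900 in pre-metastatic liver (−0.20, adjusted *p* = 0.485) and 785, 939 and 1425 in tumor. Its sign in tumor depended on the scaling. It was −0.42 against pre-metastatic liver with TMM factors (adjusted *p* = 0.0195, and 0.0846 without M7) and 0.77 without them (adjusted *p* = 5.11e-05). Against control liver it was −0.60 (adjusted *p* = 0.0122, and 0.0508 without C7) and 0.47 (adjusted *p* = 0.0379). *Ldhb*, the form that favours use of lactate, was at 1.18 to 3.43, 1.2 to 2.38 and 0.586 to 1.75 RPKM in the 3 tissues, and fell in tumor by 1.73 against pre-metastatic liver (SE 0.21, adjusted *p* = 2.28e-07).

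Lactate leaves cells through the monocarboxylate carriers. *Slc16a3*, the exporter MCT4 that glycolytic cells use, was 0.0836 to 0.117 RPKM in control liver, 0.0566, 0.298 and 0.623 in pre-metastatic liver and 15.7, 21.5 and 35.1 in tumor. It rose by 1.80 ± 0.47 between the livers (adjusted *p* = 0.00956), where ranges overlapped, and by 4.96 ± 0.35 from there to tumor (adjusted *p* = 5.66e-11). It overlaps *Csnk1d* on the opposite strand over 992 bases. *Csnk1d* had up to 9914 counts where *Slc16a3* had up to 7860, so reads of the pair may be shared. In liver *Slc16a3* had 18 to 25 counts in control and 9 to 125 in pre-metastatic libraries. *Slc16a1*, the bidirectional carrier MCT1, was 11.6 to 17 RPKM in control liver, 8.17, 14.6 and 23.6 in pre-metastatic liver and 35.6, 44.8 and 55.1 in tumor. Over all livers it did not pass the test (0.13, adjusted *p* = 0.737), but the pre-metastatic values fell into 2 ranges by clock phase, 14.6 to 23.6 early and 8.17 to 8.92 late, against 11.6 to 17 in the early controls and 12.1 in C7. Among the early livers it was called higher by 0.48 (adjusted *p* = 0.0176), and its share rose by 20.9 points (exact permutation adjusted *p* = 0.0138). In tumor it was 0.43 ± 0.20 above pre-metastatic liver (adjusted *p* = 0.0567), which passed with the mouse as a block (0.54, adjusted *p* = 0.027) and without M4, M5, M6 or M8 (adjusted *p* 0.0236 to 0.047), but was 0.04 among early-phase mice (adjusted *p* = 0.79). Its share of the carriers in tumor minus that in pre-metastatic liver was −6.88 points (exact permutation adjusted *p* = 0.336), and among early-phase mice the difference was −20.9 points (adjusted *p* = 0.0138). Against control liver *Slc16a1* was 0.58 ± 0.12 higher in tumor (adjusted *p* = 0.000283). Its share there differed by 3.01 points (exact permutation adjusted *p* = 0.459), and by 30.9 points with shares of raw counts (adjusted *p* = 0.000824). *Slc16a7*, the high-affinity carrier MCT2, held 37.2% of the control livers' carriers and 25.9% of those of pre-metastatic liver, and 0.359% in tumor, where *Slc16a3* took 34.2% ± 6.28.

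*Pdk1*, a kinase that switches off pyruvate dehydrogenase and is known to respond to low oxygen, had a larger share in pre-metastatic liver and again in tumor. It was 12.3% ± 2.32 of the kinase family in control liver and 23.7% ± 4.08 in the pre-metastatic group, and in tumor it was 36.8% ± 8.08, without overlap between the livers (exact permutation adjusted *p* = 0.000916). *Pdk2* led both livers (83.3% and 72.1%), and *Pdk3* led tumor with 58.8% ± 8.53. The level of *Pdk1* was 5.12, 4.43, 3.42, 3.81 and 4.42 RPKM in control liver, 3.37, 6.15 and 9.2 in pre-metastatic liver and 6.46, 10.4 and 19 in tumor. It was called higher between the livers by 0.74 ± 0.22 (adjusted *p* = 0.019), a call lost without C5 (0.68, adjusted *p* = 0.0528) and among early livers (0.35, adjusted *p* = 0.203), where it ran from 3.37 to 6.15, against 7.75 to 9.2 in the late ones. In tumor it was −0.48 ± 0.21 against pre-metastatic liver (adjusted *p* = 0.0451), 0.71 without TMM factors, and the call was lost without any of M2, M4, M8, M10 or M12 (adjusted *p* 0.0672 to 0.165).

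The spread across the 9 tumors was wide for some members and narrow for others. Of 29 members with at least 10 counts in every tumor, 16 had a highest value over 2-fold above the lowest, where 36% of such genes did, and 11 did so without M1. The widest was *Pgam2* with 8.99-fold, set by M4. *Slc2a3* followed with 4.70-fold, *Slc2a1* with 3.68-fold, *Eno2* with 3.19-fold and *Hk3* with 3.03-fold. The narrowest was *Eno3* with 1.39-fold, then *Slc16a1* with 1.55-fold and *Hk1* with 1.56-fold. The tumor M1 was the highest for 16 of the 29, and M7 was the lowest for 8 and M10 for 7. How many of all genes were highest in M1 or lowest in M7 or M10 was not counted. Nor is the share of all genes over 2-fold without M1 given here. Whether the members stand out in these counts therefore cannot be told. *Slc2a3* and *Hk3* did not follow M1, being highest in M12 and M5.

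**Figure D5:**
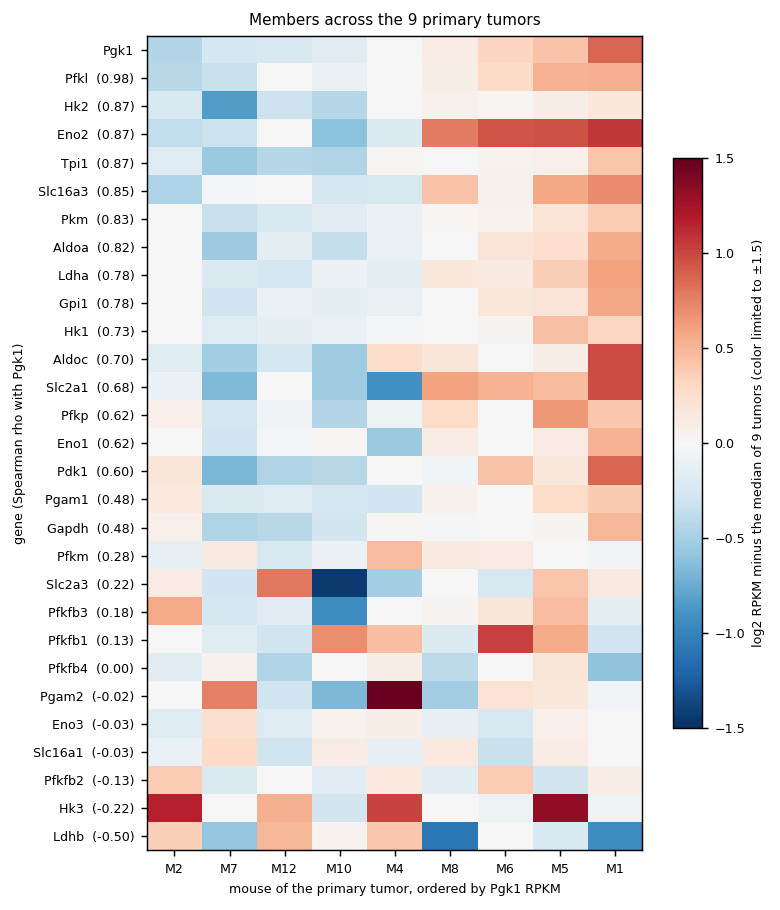
Level of each member in the 9 tumors as log2 RPKM minus its median over tumors, on a color scale, with tumors ordered by *Pgk1* from M2 at 530 RPKM to M1 at 1317. *Pfkl*, *Hk2*, *Eno2* and *Tpi1* have rho from 0.867 to 0.983 with it, and *Slc16a1*, *Eno3* and *Pfkfb4* from −0.0333 to 0.

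*Pgk1* has a single widely expressed form and served as the index of this order, M2, M7, M12, M10, M4, M8, M6, M5 and M1 from low to high. Of 28 other members, 11 had a positive Spearman relation to it at an unadjusted exact *p* under 0.05, where 2.01% of 15602 genes did, and none was negative at that level. The count was 7 to 16 when each mouse was left out, with 7 without M1, M5 or M6. None of the members, and 0 of the 15602 genes, passed after adjustment over all genes. *Pfkl* came closest (rho = 0.983, exact *p* = 4.96e-05, adjusted *p* = 0.387, and Pearson *r* = 0.943 on log2(RPKM + 1), exact *p* = 8.27e-06). Without M1 and M2, the 2 tumors farthest from the median of *Pgk1*, its rho was 0.964 and its *r* 0.94. *Hk2*, *Eno2* and *Tpi1* each had a rho of 0.867 (exact *p* = 0.00451, adjusted *p* = 0.959), with *r* of 0.718, 0.867 and 0.854 (exact *p* = 0.0271, 0.00138 and 0.00347). Without the pair their rho was 0.929, 0.821 and 0.929. The rho of *Slc16a3* was 0.85 (exact *p* = 0.00607) with *r* = 0.857 (exact *p* = 0.00266), and 0.679 without the pair (exact *p* = 0.11), so that this relation rests in part on M1 and M2. *Pkm*, *Aldoa*, *Ldha*, *Gpi1*, *Hk1* and *Aldoc* had rho from 0.833 down to 0.7. *Slc16a1* (−0.0333), *Eno3* (−0.0333) and *Pfkfb4* (0) showed no such order. Libraries share their scaling to the total count. With TMM-scaled values in place of RPKM, the count of related members stayed within 7 to 16. Relations of single members under that scaling are not given here.

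The promoters of *Pgk1* and *Ldha*, both long known as targets of hypoxia-inducible factor, are shown with the core of its motif, searched as ACGTG and GCGTG on both strands. By promoter, it was found in the 250 bases before the start in 38.6% of all 32851 and in 34 of the members' 50. By gene, with any start counted, it was found for 41.5% of 27025 and for 24 of the 31 members listed. Below are chrX:106186850-106187099 and chr7:46845554-46845803 of GRCm38.p6, both plus strand and both ending at the base before the start, with matches in capitals.
Pgk1: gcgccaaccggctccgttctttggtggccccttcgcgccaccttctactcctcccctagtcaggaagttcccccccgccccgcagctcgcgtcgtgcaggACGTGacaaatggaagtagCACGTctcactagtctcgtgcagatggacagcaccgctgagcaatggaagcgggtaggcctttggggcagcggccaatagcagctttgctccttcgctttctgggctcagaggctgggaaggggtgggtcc
Ldha: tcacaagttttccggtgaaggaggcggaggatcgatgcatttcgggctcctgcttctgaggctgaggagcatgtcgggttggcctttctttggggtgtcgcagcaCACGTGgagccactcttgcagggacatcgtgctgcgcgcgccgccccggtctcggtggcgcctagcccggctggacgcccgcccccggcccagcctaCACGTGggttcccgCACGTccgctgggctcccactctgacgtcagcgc
The matches begin 150 and 131 bases before the start in *Pgk1*, and 145, 144, 48, 47 and 34 bases before it in *Ldha*. The letters CACGTG, the E-box that Myc binds, read alike on both strands and hold the core on each, so that each E-box of *Ldha* counts as 2 of its 5 matches. The E-box was found for 6.86% of genes and for 5 of the 31 members, namely *Ldha*, *Pfkfb2*, *Pfkfb3*, *Pfkm* and *Slc16a1*. By promoter it was found in 6.02% of all and in 5 of the members' 50.

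Around the module, the pathway's other branches were counted from lists. Of all genes tested, 17.7% were called higher and 13.3% lower between the livers. The shares were 43.8% and 39.5% in tumor against pre-metastatic liver, and 44.2% and 38.1% against control liver. All list counts below stand beside these shares, and several lie near them. Of 7 genes of the pentose phosphate pathway, which makes NADPH and ribose, 4 were higher and 1 lower in pre-metastatic than in control liver, led by *Pgd* (7.88 to 13.7 RPKM, 0.89 ± 0.14, adjusted *p* = 0.000285), with *Pgls* lower (−0.35). In tumor against pre-metastatic liver 3 were higher, most of all *G6pdx*, the first enzyme (3 to 33.3 RPKM, 2.30 ± 0.15), and 2 lower, *Taldo1* most (−1.11), and against control liver 4 were higher and 1 lower. Of 7 gluconeogenesis genes, which run the route backwards, only *G6pc*, which frees glucose, was called between the livers (17.2 to 59.5 RPKM, 1.78 ± 0.58, adjusted *p* = 0.0291). In tumor 5 were lower than in pre-metastatic liver, *G6pc* most (−11.62), and *Pck2*, the mitochondrial form of PEP carboxykinase, was higher (3.70 ± 0.21). Against control liver 6 were lower and 1 higher.

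Of 12 genes for the entry of pyruvate into mitochondria and its use there, 2 were higher and 5 lower in pre-metastatic liver. *Pdp1*, a phosphatase that switches pyruvate dehydrogenase on, was highest (1.38 ± 0.28, adjusted *p* = 0.00183) and *Mpc1*, a subunit of the pyruvate carrier, lowest (39.1 to 21.1 RPKM, −0.80 ± 0.13, adjusted *p* = 0.000383). In tumor 3 were higher and 9 lower than in pre-metastatic liver, from *Pdk3* (4.44 ± 0.26) to *Pdk2* (−5.62 ± 0.27), and 2 and 9 against control liver. Of the other sugar and lactate transport genes, 3 of 10 tested were higher and none lower between the livers, with *Slc2a6*, a transporter of the lysosome, at 2.85 ± 0.61 (0.0554 to 0.39 RPKM, adjusted *p* = 0.00261). In tumor 3 of 11 were higher and 5 lower, *Emb*, a chaperone of MCTs, being highest (2.42 ± 0.22). *Slc2a5*, the fructose transporter GLUT5, was lowest, at no more than 3 counts in any tumor against a mean of 2.93 RPKM in pre-metastatic liver. Against control liver 4 of 10 were higher and 6 lower.

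Of 12 regulators, 2 were higher and 2 lower in pre-metastatic liver, *Mlxipl* at one end and *Tigar*, which lowers fructose-2,6-bisphosphate, at the other (4.28 to 2.34 RPKM, −0.79 ± 0.24, adjusted *p* = 0.021). In tumor 4 of 11 tested were higher and 7 lower, with *Myc* highest (4.02 to 49.8 RPKM, 2.44 ± 0.40, adjusted *p* = 1.31e-05), and 4 and 6 against control liver. Of 10 other hypoxia-responsive genes, 2 were higher and 4 lower in pre-metastatic liver, with a median of −0.24 against 0.01 for all genes. *Car9*, a carbonic anhydrase, was highest (0.0264 to 0.491 RPKM, 4.32 ± 1.01, adjusted *p* = 0.00498) and *Egln3*, an oxygen sensor, lowest (5.2 to 2.04 RPKM, −1.33 ± 0.35, adjusted *p* = 0.0105). In tumor 7 were higher and 1 lower than in pre-metastatic liver, with a median of 1.97 against 0.13. *Ankrd37* was highest (4.13 ± 0.30) and *Bnip3* the one lower (−1.15 ± 0.28), and against control liver 7 were higher and 3 lower.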

How the data were processed

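Poly(A) RNA of 23 libraries was sequenced from NEBNext Ultra libraries. The submitters' processing notes name HISAT2, HTSeq 0.6.0 and mm10, while the annotation and the strand setting are not given in the sources used here. The authors deposited raw counts for each gene and library, without normalization. Beside the counts, the authors gave RPKM (scaled to gene length and library total), which recomputation matched within 1.75e-06 of each value. Libraries were matched to groups and mice by the labels, and 2 symbols on more than 1 line were summed. Duplicate libraries were looked for within groups, and the most alike pair had a chi-square per degree of freedom of 44.5, far above sampling noise.

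Counts were compared with edgeR 4.0.16 in R 4.3.3 (TMM, quasi-likelihood test, two-sided, Benjamini-Hochberg over every gene that reached 10 counts in 5 or more libraries of the comparison). On simulated data it recovered 90 of 100 genes changed 4-fold and 49 of 100 changed 2-fold between the livers, with 9 false calls among 16698 genes. Shares of summed RPKM were compared by exact two-sided permutation tests, and relations across the 9 tumors by exact two-sided tests over all pairings (Python 3.11.15, scipy 1.17.1). The clock phase of a liver was set from *Dbp*, *Per3* and *Ciart* against *Arntl*, *Npas2* and *Clock*, with an index above 0.5 called late. The precision of a value is limited by its count, and intervals of counting are not used, since the spread between mice was larger. A group with at most 3 counts in every library was given no fold.

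The tumor and liver of a mouse share the animal by their labels. Within a mouse, the correlation of their deviations from group means averaged 0.0876 over 12453 genes (−0.0403 to 0.262 by mouse), against −0.0111 between mice. The fit reported is unpaired, as in the study, and the fit with the mouse as a block is an alternative. Other alternatives were DESeq2 1.42.0, scaling to total counts or the upper quartile, limma 3.58.1 on log2(RPKM + 1), no filter on low counts, the clock phase as a covariate, early-phase mice only, and each mouse left out in turn. Leaving aside the tumors of M4 and M7 or of M10 and M12, and adding the listed copies of *Gapdh*, *Eno1* and *Pgam1*, were chosen after seeing the data.

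All 32 members are named, with the other isoenzymes of the 9 families whose shares are given (some items are not reported here) and, of each list, the genes with the largest and smallest fold change past the threshold in a comparison, plus *Krt20*, *Mki67*, *Epcam* and *Cdx2*, chosen after their values were seen. The members and lists were chosen with earlier results of these data known. Promoters are RefSeq's for GRCm38.p6, with 31 of 32 members matched and *Slc2a3* not listed.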

Additional observations from a re-analysis of the deposited data

Results flagged for a closer look

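In 8 of 96 groups (32 members in 3 tissues) 1 library stood far from the others by Dixon's ratio, where chance gives about 1 in 20. This is the ratio of its gap to the range, taken on log2(RPKM + 1), and the values beside the ratios are RPKM. No cause was tested for these. In control liver, C5 was high for *Pfkm* (8.3 against 4.97 RPKM, ratio 0.812) and *Pgam1* (88.1 against 76.8, ratio 0.786), C1 was high for *Ldhb* (3.43 against 1.58, ratio 0.762) and C7 was low for *Pfkfb1* (9.46 against 12.4, ratio 0.736). In pre-metastatic liver, M12 was high for *Hkdc1* (0.391 against 0.102, ratio 0.723) and M5 for *Pfkp* (0.61 against 0.377, ratio 0.579). In tumor, M4 was high for *Pgam2* (13.4 against 4.04, ratio 0.599) and M1 for *Aldoc* (2.63 against 1.61, ratio 0.522). C1 and the tumor of M4 are also the libraries with the most skeletal muscle marker RNA of their groups.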

How the results depend on the processing

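Of the single genes under alternatives other than leaving out a mouse, 831 values kept direction and call, 41 lost and 22 gained the call and 23 turned. Members called lower became 4 in early-phase livers, 6 under limma in tumor against pre-metastatic liver, and 4 under both total counts and limma against control liver. All genes called higher became 1988 between the livers under limma. In tumor against pre-metastatic liver all genes became 13352 higher and 4206 lower under total counts and 13207 and 4106 under limma, and against control liver 12859 and 4130 under total counts and 4121 lower under limma.

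Leaving out each mouse gave 8 to 12 members higher and 5 to 7 lower between the livers, 21 to 22 and 8 to 10 in tumor against pre-metastatic liver, 18 to 20 and 6 to 7 against control liver, 3 to 4, 6 and 5 to 6 shares past the test, 11 to 16 members over 2-fold across tumors and 7 to 16 related to *Pgk1*, with 7 each without M1, M5 or M6.

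With the mouse as a block 22 members were higher and 10 lower in tumor, *Slc16a1* passing (0.54, adjusted *p* = 0.027), and no other call changed. The sign-flip test within mice gave the same 6 calls of shares.

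Between the livers these values turned, none past the test: *Pfkl* (−0.03 under total counts and under limma, −0.04 in early-phase mice), *Pgk1* (0.01 with the phase as a covariate, 0.07, 0.00 and 0.02 without C1, C5 and M1, down to −0.07 without another mouse), *Pgam2* (−0.01 without M4, up to 0.64), *Ldha* (0.05 in early-phase mice), *Ldhb* (0.03 under the upper quartile, 0.01 under limma and with the covariate, 0.42, 0.01, 0.04, 0.03 and 0.00 without C1, M6, M7, M8 and M10, down to −0.12) and *Slc16a1* (−0.05 under limma). Against pre-metastatic liver total counts and limma turned *Pfkfb3* (0.01, 0.12), *Ldha* (0.77 in both) and *Pdk1* (0.71, 0.62), and against control liver *Pfkfb3* (0.75, 0.56), *Aldoc* (0.09, 0.07) and *Ldha* (0.47, 0.51). *Tpi1* against control liver turned to −0.02 with DESeq2, −0.01 in early-phase mice, −0.04 without C6 or M1 and −0.00 without C7 or M5. Shares that turned were those of *Pfkfb1* (0.188 points from raw counts), *Eno1* (−0.00486 without C1, up to 0.156) and *Ldha* (0.0275 in early-phase mice, 0.00171 without C7, down to −0.108) between the livers, *Pgam1* (0.236 without the tumors of M4 and M7) and *Slc16a1* (15.6 from raw counts) against pre-metastatic liver, and *Pfkl* (−6.39 from raw counts, adjusted *p* = 0.0202) against control liver. The causes were not tested. Depth limits *Hkdc1*, *Eno2* and *Pfkfb4* in liver and *Pklr* and *Slc2a2* in tumor.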
